A study of Rattus norvegicus with 43 samples.

Results

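Fatty acid oxidation and ketogenesis are carried here by 38 genes, listed by name: enzymes that activate fatty acids and pass them into mitochondria, the mitochondrial and peroxisomal oxidation steps, Bdh1 of ketone body synthesis, and Ppara with genes it is known to regulate. Of the probe sets assigned to 1 gene alone, the brightest on average on the log2 scale stood for each gene, and 37 of the 38 had one. Acaa1a, the peroxisomal thiolase, shared its probe set with another gene and was not analysed. Acot1, an acyl-CoA thioesterase, stayed below the filter on low signal, so 36 genes were tested among 10644 in all. The samples were liver and rat primary hepatocytes (RPH) of 3 untreated male Sprague Dawley rats, with 3 rats in each of 5 groups. A liver lobe was tied off before perfusion, and RPH were taken as the cell pellet (0 h) and after 4, 24 and 48 h on collagen-coated plates. All cultures were kept in William's E medium with insulin, transferrin, dexamethasone, glutamate and gentamicin, with serum only for the first 4 h, so serum and time in culture cannot be told apart. Replicates are separate rats, and every list of signals gives rats 1, 2 and 3 in that order. A signal is the scaled, linear MAS5 brightness of a probe set, and a gene is called up or down at an adjusted p under 0.05 in limma.

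In the liver, long-chain fatty acids are bound by FABP1, activated by acyl-CoA synthetases and carried into mitochondria by the carnitine shuttle, whose entry enzyme CPT1A is the main control point. Inside, repeated rounds of dehydrogenation, hydration, dehydrogenation and thiolysis release acetyl-CoA, which the fasting liver turns into ketone bodies. Peroxisomes shorten very long and branched chains, and PPAR alpha, a fatty acid-sensing nuclear receptor, drives transcription of many of these genes.

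The 43 arrays held 8 or 9 arrays per group, and their median signal lay between 108 and 145 in liver, 87.7 and 116 at 0 h, 79.7 and 115 at 4 h, 84.4 and 111 at 24 h, and 86.1 and 112 at 48 h. The signal of the 3' actin probe set over that of the 5' one, a measure of RNA integrity and labelling, averaged 4.60 ± 2.05 in liver, 3.90 ± 0.65 at 0 h, 2.97 ± 0.14 at 4 h, 2.35 ± 0.14 at 24 h and 2.22 ± 0.25 at 48 h (SD, n = 3 rats), and its part in the results was not tested. The livers labelled rats 1 and 2 each resembled the other rat's hepatocytes more than their own (mean residual r 0.03 with its own rat and 0.19 with rat 2 for the liver of rat 1, -0.06 with its own rat and 0.08 with rat 1 for the liver of rat 2). Residuals were taken from the mean of the 3 rats of a group, so these r values are tied to each other, and their differences were not tested. The tests below do not use the rat, except where a block is named, and a blocked value vs. liver rests on these labels. Summed signals of 9 hepatocyte markers ran from 208434 to 263471 at 24 h and 164754 to 189079 at 48 h, against 291604 to 315970 in liver; 5 of the 9 fell at 24 h and 7 at 48 h, while 0 were called at 0 or 4 h. Sinusoidal endothelial markers (8 tested) summed to 300 to 640 at 48 h against 11074 to 12706 in liver, and Kupffer cell markers (9 tested) to 1609 to 2195 at 48 h against 16356 to 22405 in liver. Fewer cells of a type and less RNA per cell cannot be told apart in these bulk samples.

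No gene was called directly after isolation: 0 of 36 passed an adjusted p under 0.05 in RPH at 0 h vs. liver by limma, and 1 had an unadjusted p under 0.05. Over all 10644 genes, 0.141% were called up and 0.432% down in that comparison. Culture was followed by a broad fall. At 4 h, 2 genes were up and 7 down vs. liver (16.4% of all genes up and 29.8% down), at 24 h 1 was up and 24 down (23.7% up and 23.9% down), and at 48 h 3 were up and 23 down (25.4% up and 22.6% down). The number up was 1 at 4 h when any 1 rat, or replicate 1 or 3 of liver or of RPH 4 h, was left out, 0 at 24 h without rat 1 or 2, liver replicate 1 or 2 or RPH 24 h replicate 1 or 3, and 1 at 48 h without rat 1 or liver replicate 1. The counts of falling genes at 24 and 48 h were above the background and at 4 h below it. With the rat as a block 13 of the 36 genes were down at 4 h, close to the 35.7% of all genes down in that fit, the added ones being Acadl, Hadha, Decr1, Acox2, Ehhadh and Vnn1. The median log2 fold change vs. liver over the 36 genes was 0.05 at 0 h, -0.34 at 4 h, -0.96 at 24 h and -0.72 at 48 h, beside -0.08, -0.25, 0.00 and 0.04 over all genes. The number of genes below the all-gene median was 24 of 36 at 4 h, 32 at 24 h and 28 at 48 h.

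The counts depend on how the arrays were scaled. The deposited signals bring every array to the same trimmed mean, and the highest array medians were in liver. Centring each array on its median moved the all-gene median difference vs. liver to 0.21 at 4 h, 0.42 at 24 h and 0.43 at 48 h. Under that scaling 17 genes were down and 2 up at 24 h (39.8% of all genes up and 13.7% down), and 11 were down and 6 up at 48 h (40.6% up and 13.5% down). The 11 were Acsl1, Acsl5, Cpt1a, Acadm, Hadh, Etfb, Acox2, Ehhadh, Scp2, Bdh1 and Fabp1, and no called gene at 24 or 48 h changed sign. The 24 h calls that centring ended were those of Acsl4, Cpt2, Acadl, Acads, Echs1, Acaa2 and Etfdh. At 4 h only 1 falling gene, Crat, stayed called. Hepatocyte markers fell together with these genes at 24 and 48 h, with a median of -0.40 and -0.67, but after centring 1 of the 9 was down at 24 h (median 0.02) and 3 at 48 h (median -0.28).

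**Figure D1:**
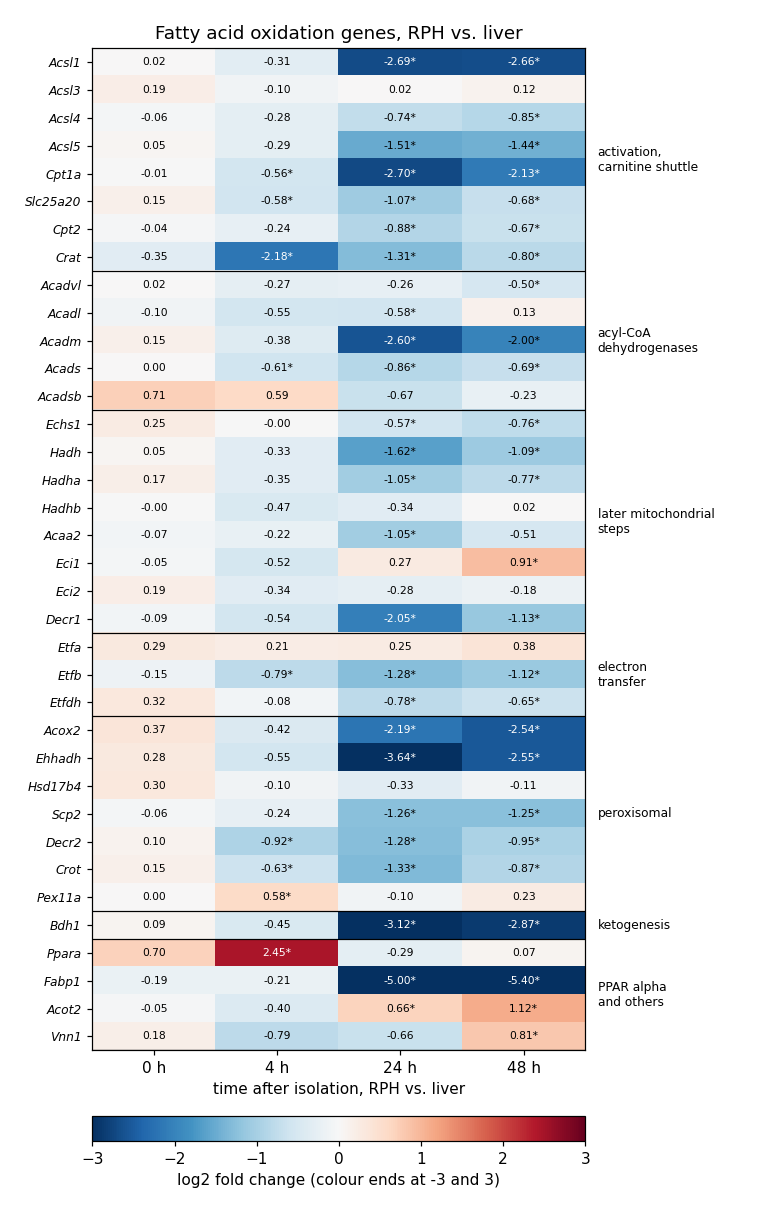
Heat map of the mean log2 fold change of each of the 36 tested genes (rows, grouped by role) in RPH vs. liver at 0, 4, 24 and 48 h (columns); asterisks mark an adjusted p under 0.05, and the colour scale ends at -3 and 3. The 0 h column holds no asterisk, and the deepest falls at 48 h are Fabp1 (-5.40), Bdh1 (-2.87) and Acsl1 (-2.66). The asterisk of Ppara at 4 h is set against dim liver signals.

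Of the 8 genes of activation and the carnitine shuttle, 7 were down at 24 h and 7 at 48 h (beside 23.9% and 22.6% of all genes), with a median of -1.19 and -0.82. After centring 5 were down at 24 h, and 3 (Acsl1, Acsl5 and Cpt1a) were down and 1 (Acsl3) up at 48 h. In that scaling 13.7% of all genes were down at 24 h, and 13.5% were down and 40.6% up at 48 h. In every fit that left out a sample or a rat, 6 of the 7 stayed down at 24 h and 3 of the 7 at 48 h. Acsl1, the main long-chain acyl-CoA synthetase of liver, had signals of 27244, 26716 and 25784 in liver, 26089.8, 28611 and 25976 at 0 h and 22599, 21313 and 20557 at 4 h. Signals were 4510.1, 4480.0 and 3477 at 24 h and 4960.1, 3691 and 4045 at 48 h. The cultured samples of the last 2 times lay far below all livers, without overlap, at 15.8% of the liver geometric mean at 48 h (log2 difference -2.66 ± 0.15 (SE), adjusted p = 2.63e-08). A second probe set of Acsl1 fell by 3.46 on the log2 scale at 48 h.

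Cpt1a, the entry enzyme of the shuttle, gave 7218, 6083 and 6643 in liver, 6714, 6368 and 6696 at 0 h and 3981, 4401 and 5191 at 4 h. Its signals were 943, 1131 and 994 at 24 h and 1746, 1386 and 1446 at 48 h. Every 4 h sample was already below every liver (log2 difference -0.56 ± 0.15 (SE), adjusted p = 0.00692; -0.10 and not called after centring). The fall was -2.70 at 24 h (adjusted p = 3.38e-08) and -2.13 at 48 h (adjusted p = 1.56e-07), and the 48 h samples were above all 24 h samples (log2 difference 0.57 ± 0.15 (SE), adjusted p = 0.0415). That late rise passed the threshold by little. It was not called when any of 11 of the 15 samples, or any of the 3 rats, was left out. In a dimmer second probe set of Cpt1a, the log2 difference vs. liver was 0.01 at 4 h, -1.70 at 24 h and -1.24 at 48 h.

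Acsl5, another acyl-CoA synthetase, gave 7801, 5127 and 8808 in liver, 2173, 2486 and 2805 at 24 h and 2439, 3161 and 2264 at 48 h, and at 0 and 4 h its range was 4316 to 9319.8. The fall at 48 h (log2 difference -1.44 ± 0.26 (SE), adjusted p = 0.000568) left no overlap, while a dimmer second probe set moved less (-0.47).

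Crat, the carnitine acetyltransferase that handles short acyl groups, fell early. At 4 h its signals were 209, 220.3 and 332, against 1121, 1116 and 1132 in liver, and every 4 h sample was below every liver (log2 difference -2.18 ± 0.22 (SE), adjusted p = 6.26e-06). Values then climbed to 467, 401 and 498 at 24 h and 515, 709.9 and 730.2 at 48 h, and the difference between 24 h and 4 h passed the threshold (0.87, adjusted p = 0.00592; not called without rat 1). Slc25a20, the carnitine-acylcarnitine carrier, fell by 1.07 at 24 h and 0.68 at 48 h, and Cpt2, the inner carnitine palmitoyltransferase, by 0.88 and 0.67. Both 48 h calls were lost without rat 1 or 3, and that of Crat (-0.80) without rat 1. Acsl4, which prefers arachidonic acid, fell by 0.74 and 0.85 at the same times. Its 24 h call was lost after quantile normalization (-0.61, adjusted p = 0.0645) and without RPH 24 h replicate 2 or 3 or rat 1 or 3, and its 48 h call without rat 1. Acsl3, a synthetase of the endoplasmic reticulum and lipid droplets, was not called in any comparison, with differences of -0.10 to 0.19 vs. liver, but was called up at 48 h after centring (0.51).

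**Figure D2:**
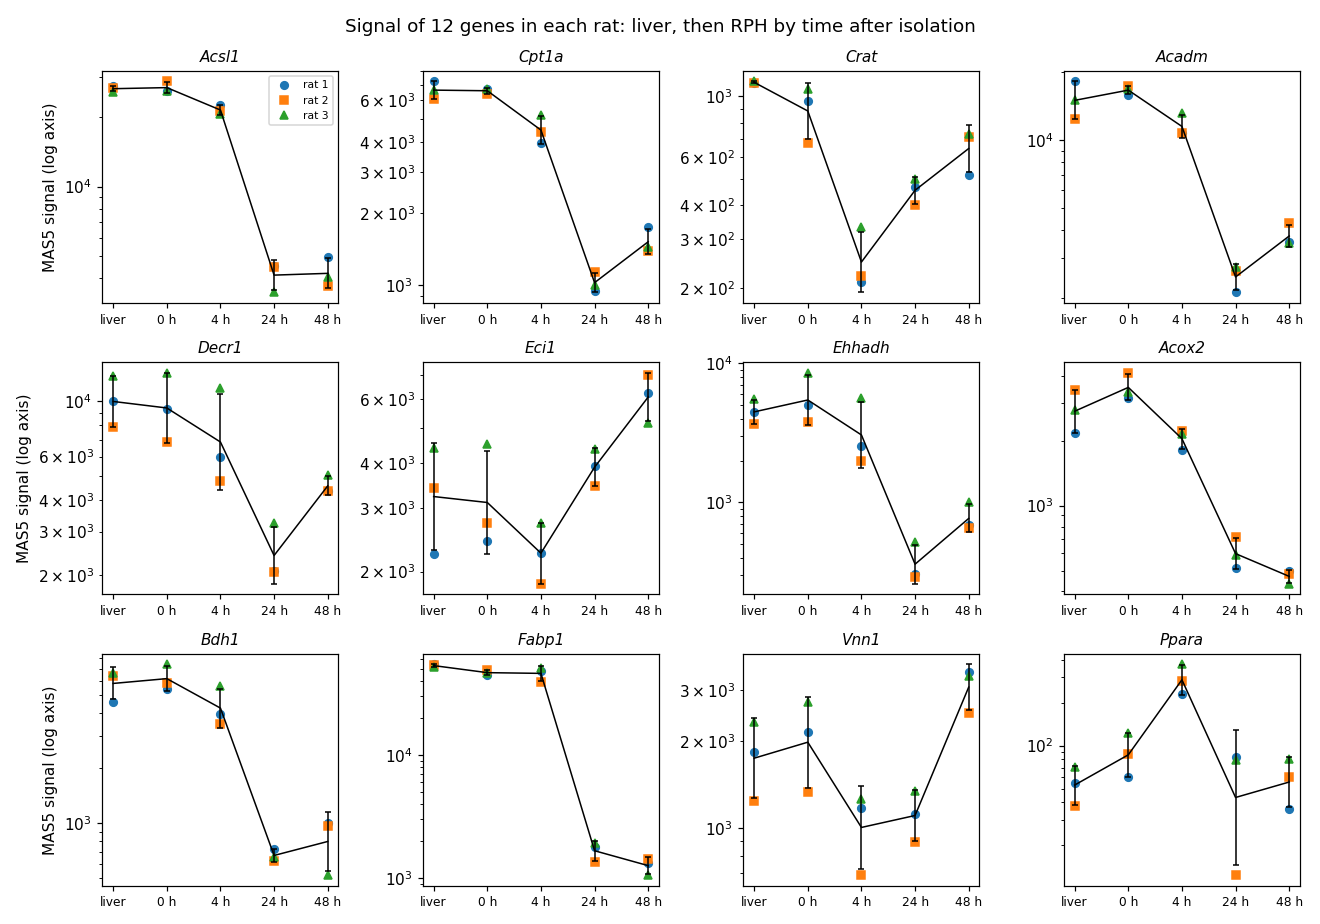
MAS5 signal (log axis) of 12 genes in each rat (circle, square and triangle for rats 1, 2 and 3), in liver and in RPH at 0, 4, 24 and 48 h; the line joins geometric means and bars show 1 SD on the log2 scale (n = 3). Acsl1, Cpt1a, Acadm, Ehhadh, Acox2, Bdh1 and Fabp1 drop between 4 and 24 h, Crat is lowest at 4 h, Ppara is highest at 4 h, and Eci1 and Vnn1 are highest at 48 h.

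Of 16 genes of the mitochondrial matrix steps and electron transfer, 10 were down and 0 up at 24 h, and 9 down and 1 up at 48 h, with a median of -0.72 and -0.58 (all genes: 23.9% and 22.6% down, 23.7% and 25.4% up). After centring 5 were down and 1 up at 24 h, and 3 down (Acadm, Hadh and Etfb) and 2 up (Eci1 and Etfa) at 48 h. Over all genes, centring gave 13.7% down and 39.8% up at 24 h, and 13.5% down and 40.6% up at 48 h. In every fit that left out a sample or a rat, 7 of the 10 stayed down at 24 h and 6 of the 9 at 48 h. The peroxisomal list had 5 of 7 down at each time, with a median of -1.28 and -0.95, and after centring 5 down at 24 h and 3 down and 1 up at 48 h. The all-gene shares beside the peroxisomal counts are the same as for the mitochondrial ones.

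Among the acyl-CoA dehydrogenases, which take the first oxidation step at different chain lengths, the medium-chain enzyme stood out. Acadm gave 18236, 12362 and 15023 in liver, 15926, 17334 and 16782 at 0 h and 10745, 10753 and 13197 at 4 h, and 2120.3, 2621 and 2739 at 24 h and 3548, 4279.9 and 3511 at 48 h. All samples of 24 and 48 h were below all earlier samples (-2.60 at 24 h, adjusted p = 1.39e-07; -2.00 at 48 h, adjusted p = 9.3e-07).

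Acads, the short-chain enzyme, gave 1219, 1811 and 2269 at 4 h, 1211, 1314 and 1876 at 24 h and 1407, 1784 and 1694 at 48 h, against 2756, 2679.8 and 2398 in liver, and the groups did not overlap. At 0 h they were 2312, 2617 and 2954. It fell by 0.61, 0.86 and 0.69 at 4, 24 and 48 h. The 4 h call was lost after centring (-0.15) and without any 1 liver replicate, RPH 4 h replicate 1 or 2, RPH 48 h replicate 3, or rat 1 or 2, and the 24 h call without rat 2. At 48 h the call was lost without liver replicate 1 or 2, RPH 48 h replicate 1, or rat 1 or 2. Acadvl, the very long-chain enzyme, gave 3814, 3214 and 3180.2 at 48 h against 4333, 4804 and 5291 in liver, and fell by 0.50 (adjusted p = 0.0145), a call that was lost without liver replicate 3 or RPH 48 h replicate 2 or 3. Signals of Acadvl were 4661, 4389.5 and 5557 at 0 h and 4082, 3516 and 4389.7 at 4 h.

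Acadl, the long-chain enzyme, was called down at 24 h only. It gave 7448, 7098 and 8929 at 24 h and 13203, 13722 and 11406 at 48 h, against 10312, 10687 and 14378 in liver. The 24 h fall barely passed (-0.58, adjusted p = 0.0438) and was lost when any of 8 samples was left out, and the 48 h difference was 0.13. The rise between 24 and 48 h had an adjusted p of 0.101, and 0.0298 with the rat as a block. Acadsb, the short/branched-chain enzyme, ranged from 133 to 743 over the 9 samples of liver, 0 h and 4 h and from 132 to 246 at 24 and 48 h, and was called only at 24 h vs. 4 h (-1.27, adjusted p = 0.0226), and up at 4 h vs. liver after centring (1.05).

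Of the 8 genes of the later mitochondrial steps, 5 were down at 24 h, and 4 were down and 1 up at 48 h. Over all genes 23.9% were down at 24 h, and 22.6% were down and 25.4% up at 48 h. After centring 3 of the 8 were down at 24 h, and 1 was down and 1 up at 48 h. In that scaling 13.7% of all genes were down at 24 h, and 13.5% were down and 40.6% up at 48 h. Neither centred 48 h count was above its share. Decr1, the dienoyl-CoA reductase needed for polyunsaturated chains, gave 2079.7, 2058 and 3252 at 24 h and 4348, 4357 and 5059 at 48 h, against 9992, 7865 and 12667 in liver. Signals of Decr1 were 9297, 6869 and 13009 at 0 h and 5960.1, 4807 and 11289 at 4 h. Rat 3 was the highest in every group, and the 24 and 48 h samples did not overlap with liver (-2.05 at 24 h, adjusted p = 0.000176, and -1.13 at 48 h, adjusted p = 0.0105). The 48 h call was lost without rat 1 and after centring (-0.73, adjusted p = 0.0828 by limma). With the rat as a block, Decr1 was also lower at 4 h vs. liver (adjusted p = 0.0196) and vs. 0 h (adjusted p = 0.048), and higher at 48 h vs. 24 h (adjusted p = 0.00708).

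Hadh, the short-chain hydroxyacyl-CoA dehydrogenase, gave 4997, 4486 and 4433 at 24 h and 7262, 6889 and 5915 at 48 h, against 13552, 14470.2 and 14672 in liver. Signals of Hadh were 13483, 14583 and 16369.8 at 0 h and 11013, 10285 and 12717 at 4 h. The fall was -1.62 at 24 h and -1.09 at 48 h, and every 48 h sample lay above every 24 h sample (0.52, adjusted p = 0.0489). The late difference was not called when any of 14 of the 15 samples was left out. Echs1, the short-chain enoyl-CoA hydratase, fell by 0.57 at 24 h and 0.76 at 48 h, and Acaa2, a thiolase, by 1.05 at 24 h (-0.51 at 48 h, adjusted p = 0.0865, and 0.0133 when the rat was a block). A dimmer second probe set of Acaa2 was higher than in liver at 4 h (1.40) and also at 24 h (0.59), against the call, and lower at 48 h (-1.01).

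Eci1, an enoyl-CoA isomerase for unsaturated chains, went the other way. Its signals were 6231, 6992 and 5153 at 48 h against 2240.1, 3408 and 4392 in liver, so that every 48 h sample was above every liver (log2 difference 0.91 ± 0.27 (SE), adjusted p = 0.0136). Signals of Eci1 were 2431, 2729.6 and 4510.0 at 0 h, 2252, 1850.5 and 2728 at 4 h and 3912, 3439 and 4364 at 24 h. The call was lost without liver replicate 1, RPH 48 h replicate 2 or rat 1 or 2. A second probe set of Eci1 had mean signals of 48.1 at 48 h and 102 in liver, near or below the array medians, so no direction is read from it. Eci2, the related isomerase, was -0.18 and was not called.

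The mitochondrial trifunctional protein pairs a product of Hadha with one of Hadhb, and the 2 genes got different calls in culture. After centring, Hadha was still called at 24 h by little (-0.64, adjusted p = 0.0459 by limma) and Hadhb was not. At 48 h neither was called after centring (Hadha -0.38, Hadhb 0.41). Hadha gave 2414, 2452 and 2869.8 at 24 h and 3165, 3006 and 3182 at 48 h, against 5424, 4676 and 5973 in liver, and fell by 1.05 and 0.77. Hadhb gave 7513, 6709.7 and 6831 at 24 h and 10213, 8678 and 8288 at 48 h, against 8299.7, 7008 and 12101 in liver, with a difference of -0.34 (-0.92 to 0.23, 95% confidence interval) and 0.02 (-0.56 to 0.60) that was not called. The log2 ratio of Hadha over Hadhb signal in the same sample was -1.64, -1.45 and -1.25 at 24 h and -1.69, -1.53 and -1.38 at 48 h, against -0.61, -0.58 and -1.02 in liver. These pairs of subunits were chosen after their values were seen, so the ratio is given with no test; the level of a ratio depends on the probe sets, and only its change is read.

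The 2 genes lie head to head on rat chromosome 6, with 300 bases between their RefSeq starts in GRCr8. Windows of 250 bases before to 50 after a start were matched for 32 of the 36 genes. The Hadha window (chr6:31907551-31907850, plus strand) is shown because its first 200 bases, in capitals, also lie in the window of Hadhb (chr6:31907451-31907750, minus strand). Both genes share this upstream stretch, which is read on the opposite strand for Hadhb.
Hadha: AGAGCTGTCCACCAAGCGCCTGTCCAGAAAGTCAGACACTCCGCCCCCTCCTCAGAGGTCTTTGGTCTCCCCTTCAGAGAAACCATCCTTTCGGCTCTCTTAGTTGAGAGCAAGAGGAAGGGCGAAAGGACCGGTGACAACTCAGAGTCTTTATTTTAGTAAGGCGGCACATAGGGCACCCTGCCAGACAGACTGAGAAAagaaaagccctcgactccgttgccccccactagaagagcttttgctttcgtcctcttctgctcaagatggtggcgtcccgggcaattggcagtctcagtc

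A GC box (GGGCGG, either strand) was in 24 of the 32 windows (75.0%), against 33.1% of all 33469 windows of this length, and a CCAAT box in 12 of 32 (37.5%), against 37.5% of all. The 33469 windows were not limited to tested genes or to 1 window per gene, as the 32 were, so these shares come from unlike sets. A match is a run of letters and no evidence of binding.

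Electron transfer passes electrons from the dehydrogenases to the respiratory chain, and the calls for its 2 flavoprotein subunits differed as well. Etfb gave 5022, 4638 and 4653 at 24 h and 6030.1, 4982 and 5043 at 48 h, against 13267, 9709.9 and 12098 in liver, without overlap, and had fallen by 0.79 at 4 h, 1.28 at 24 h and 1.12 at 48 h. Signals of Etfb were 10745, 9383 and 11205 at 0 h and 6805, 5718 and 7781 at 4 h. Etfa gave 5656, 7037 and 6123 at 24 h and 6723, 7458 and 6348 at 48 h, against 4922, 4623 and 6356 in liver, overlapping at both times (0.38, adjusted p = 0.109 at 48 h). Signals of Etfa were 5002, 6698 and 7818 at 0 h and 5448, 5897 and 7006 at 4 h. Etfa was called up at 48 h after quantile normalization (0.55) and after centring (0.77). The log2 ratio of Etfb over Etfa was -0.16, -0.58 and -0.33 at 48 h, against 1.43, 1.07 and 0.93 in liver. Etfdh, the dehydrogenase that receives these electrons, gave 2028, 2221 and 2110.2 at 48 h against 2974, 3597 and 3466 in liver, and fell by 0.65 with no overlap. At 0, 4 and 24 h its signals were between 1856 and 4591.

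**Figure D3:**
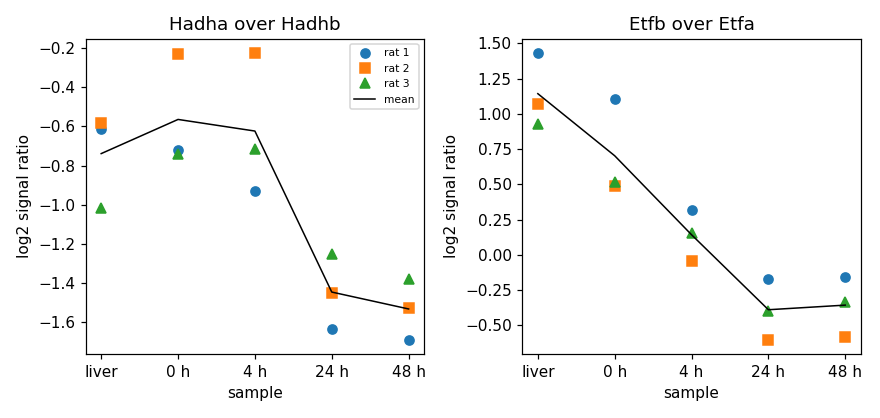
Log2 ratio of the signals of Hadha over Hadhb (left) and Etfb over Etfa (right) in each rat, in liver and in RPH at 0, 4, 24 and 48 h, with the line joining means. Hadha over Hadhb lies between -1.69 and -1.25 at 24 and 48 h against -1.02 to -0.58 in liver, and Etfb over Etfa between -0.60 and -0.16 at 24 and 48 h against 0.93 to 1.43 in liver.

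Ehhadh and Acox2 had the largest falls of the peroxisomal genes at 24 and 48 h. Ehhadh, the peroxisomal bifunctional enzyme and a classic PPAR alpha target, gave 4443, 3674 and 5515 in liver, 5029, 3776 and 8565 at 0 h and 2544, 1988 and 5650.3 at 4 h. It gave 304, 291 and 521 at 24 h and 689, 653 and 999 at 48 h. Rat 3 had the highest signal in every group, yet all 24 h samples lay below all samples up to 4 h, at 8.01% of the liver geometric mean (log2 difference -3.64 ± 0.39 (SE), adjusted p = 8.53e-06). At 48 h the fall was -2.55 (adjusted p = 0.000142). With the rat as a block, Ehhadh was lower at 4 h vs. liver (adjusted p = 0.0205) and higher at 48 h vs. 24 h (difference 1.09, adjusted p = 0.00365), calls that the fit without it did not make.

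Acox2, the oxidase for branched chains and bile acid intermediates, gave 511, 715 and 587 at 24 h and 496, 482 and 434 at 48 h, against 2162, 3426 and 2779 in liver, with log2 differences of -2.19 at 24 h and -2.54 at 48 h and no overlap. Signals of Acox2 were 3173, 4131 and 3371 at 0 h and 1807, 2209 and 2140.3 at 4 h. Between 48 and 24 h its difference was not called (-0.35, adjusted p = 0.411). Scp2, a thiolase and lipid carrier, gave 12749.8, 13164 and 10214 at 48 h against 28552, 29117 and 27735 in liver, without overlap (log2 difference -1.25 ± 0.15 (SE), adjusted p = 1.69e-05). Scp2 gave 24825, 32705 and 24935 at 0 h, 22634, 25802 and 24043 at 4 h and 11001, 12543 and 12134 at 24 h.

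Decr2, the peroxisomal dienoyl-CoA reductase, fell by 0.92 at 4 h, 1.28 at 24 h and 0.95 at 48 h, and Crot, which exports shortened chains as carnitine esters, by 0.63, 1.33 and 0.87. Hsd17b4, the D-bifunctional enzyme, was not called vs. liver (-0.33 at 24 h, adjusted p = 0.087, and 0.0406 when the rat was a block). Pex11a, which drives peroxisome division, rose at 4 h, with 1331, 1111 and 1208 against 817, 842 and 782 in liver (log2 difference 0.58 ± 0.19 (SE), adjusted p = 0.0251). That call was lost without any 1 of the liver replicates 1 and 3 or the RPH 4 h replicates 1 and 3. A second probe set of Pex11a was higher than in liver at 4, 24 and 48 h (1.56, 1.03 and 1.59). Its mean liver signal of 83.6 lay below the array medians.

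Ketogenesis is represented by Bdh1, the mitochondrial enzyme that makes 3-hydroxybutyrate. Bdh1 gave 4604, 6413 and 6637 in liver, 5429, 5858 and 7389 at 0 h and 3953, 3486 and 5604 at 4 h, then 725, 624 and 654 at 24 h and 1005, 960.5 and 519 at 48 h. All samples from 24 h on lay below all earlier ones, at 11.5% of the liver geometric mean at 24 h and 13.7% at 48 h (log2 difference -2.87 ± 0.26 (SE), adjusted p = 1.55e-06). A second probe set of Bdh1 fell by 4.02 at 48 h. Other ketone body genes, 4 of 7 of which were tested, did not move as one: Acat1, the acetoacetyl-CoA thiolase, fell by 1.22 at 48 h (adjusted p = 7.69e-05), and Bdh2, a cytosolic dehydrogenase, was higher (0.94, adjusted p = 0.0494, with overlapping groups, and above the array's median on 6 of 8 arrays at 48 h and 0 of 9 of liver).

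Ppara itself was dim: its signal was above the array's median on 2 of 9 arrays of liver, 4 of 9 at 0 h, 8 of 8 at 4 h, 2 of 9 at 24 h and 0 of 8 at 48 h. Its signals were 54.9, 38 and 71.1 in liver, 60, 87.6 and 122 at 0 h and 230.1, 283 and 371 at 4 h, then 83.6, 12.4 and 78.7 at 24 h and 35.7, 60 and 80.2 at 48 h. All 4 h samples were above all others. The gene was called up at 4 h vs. liver and down at 24 h vs. 4 h, but with liver, 24 h and 48 h signals this low the size of either difference is not a measured fold, and the call at 4 h is given as a description. With a filter at the median in 50% of arrays Ppara was not tested. At 24 h rat 2 stood far below the other rats.

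Fabp1, the abundant fatty acid binding protein of liver, fell furthest. It gave 54686, 53651 and 52150.2 in liver, 44918, 49129 and 46627 at 0 h and 48731, 39502 and 51326 at 4 h. Signals were 1799.8, 1345 and 1923 at 24 h and 1331, 1436 and 1055 at 48 h. The liver signals were near the highest of any probe set (61207). Every sample from 24 h on lay far below every earlier one, and the measured difference was -5.00 at 24 h (adjusted p = 4.04e-10) and -5.40 at 48 h (adjusted p = 2.87e-10), or 3.12% and 2.36% of the liver geometric mean. Whether liver signals this high were saturated cannot be read from these values, so the falls may be larger than measured.

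The Fabp1 window is shown because it was the only one of the 32 with a pair of half-sites of the type that PPAR alpha and HNF4 bind, searched as AGGNCANAGGNCA on both strands and found in 0.415% of all windows. It lies at chr4:104749090-104749389 on the plus strand of GRCr8, the match is in capitals and begins 77 bases before the RefSeq start.
Fabp1: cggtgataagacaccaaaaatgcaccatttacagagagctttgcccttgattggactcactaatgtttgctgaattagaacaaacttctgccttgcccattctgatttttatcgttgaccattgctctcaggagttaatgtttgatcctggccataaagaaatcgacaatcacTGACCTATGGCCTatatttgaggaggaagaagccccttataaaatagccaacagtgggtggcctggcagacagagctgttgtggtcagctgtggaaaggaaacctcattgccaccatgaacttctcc

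Acot2, a mitochondrial acyl-CoA thioesterase, and Vnn1, a pantetheinase that PPAR alpha regulates, were higher late. Acot2 gave 1558, 1303 and 1598 at 24 h and 1968, 2344 and 1856 at 48 h, against 869, 856 and 1113 in liver, without overlap (0.66, adjusted p = 0.0364 at 24 h, lost when any of 4 samples was left out; 1.12, adjusted p = 0.00174 at 48 h). All 3 probe sets of Acot2 were higher at 48 h (0.86 to 1.91), but Acot1 and Acot2 are close copies of each other and signal between them may be shared. Signals of Acot2 were 938, 723 and 1109 at 0 h and 692, 506 and 1024 at 4 h. Vnn1 gave 1175, 687 and 1255 at 4 h, 1121, 896 and 1339 at 24 h and 3463, 2486 and 3333 at 48 h, against 1834, 1239 and 2322 in liver. At 0 h they were 2136, 1333 and 2712. Its 48 h samples exceeded every liver, and the 48 h rise passed narrowly (0.81, adjusted p = 0.0453) while the rise vs. 24 h was larger (1.47, adjusted p = 0.0172). The call vs. liver was lost when any of 7 samples, or rat 1 or 3, was left out. It was also lost after quantile normalization (0.74, adjusted p = 0.0605 by limma). The call vs. 24 h was lost when any of 4 samples, or rat 1 or 3, was left out. With the rat as a block, Vnn1 was lower than in liver at 4 h (adjusted p = 0.000615) and 24 h (adjusted p = 0.00195), values that rest on the rat labels of the livers.

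Between successive times, most genes were called in the step to 24 h. At 4 h vs. 0 h, 2 genes were up and 14 down (16.3% of all genes up and 22.7% down), at 24 h vs. 4 h 3 were up and 21 down (26.3% up and 13.5% down), and at 48 h vs. 24 h 3 were up (Cpt1a, Hadh and Vnn1) and 0 down (2.51% up and 1.78% down). Of the last step, 31 of the 36 differences were positive, against 51.6% of all genes, with a median of 0.30 against 0.01, and 12 genes had an unadjusted p under 0.05. With the rat as a block, 6 genes were up in that step (4.42% of all genes in that fit), the others being Acadl, Decr1 and Ehhadh. In the fit without the block, 0 genes were called up in that step when RPH 24 h replicate 1, RPH 48 h replicate 1 or 3, or rat 1 was left out, and 1 without liver replicate 2 or 3, any 1 RPH 0 h replicate, RPH 4 h replicate 2, RPH 24 h replicate 2 or 3, RPH 48 h replicate 2, or rat 2 or 3. The count of genes down at 4 h vs. 0 h was 4 without rat 1, 6 without rat 2, 7 without rat 3, RPH 0 h replicate 3 or RPH 4 h replicate 2, and 8 without RPH 0 h replicate 2 or RPH 4 h replicate 1. That at 4 h vs. liver was 3 without rat 1 and 15 without RPH 4 h replicate 3. The 2 genes up at 4 h vs. 0 h became 0 or 1 when any 1 rat, any 1 RPH 4 h replicate or RPH 0 h replicate 1 or 2 was left out, and 0 were up at 24 h vs. 4 h without rat 1.

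**Figure D4:**
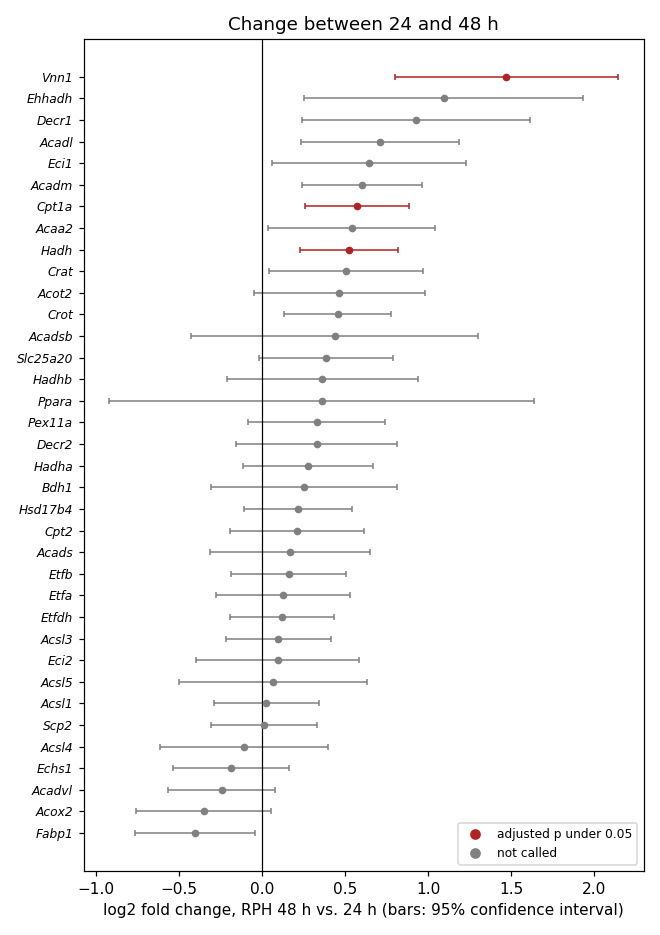
Log2 fold change of the 36 genes in RPH at 48 h vs. 24 h with 95% confidence intervals, red where the adjusted p was under 0.05. Most points lie right of 0 (31 of 36), with Vnn1 (1.47), Cpt1a (0.57) and Hadh (0.52) called and Fabp1 (-0.40) at the other end.

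Related genes of oxidation and fatty acid handling moved in both directions. Of 84 related genes, 74 were tested, and 5 were up and 28 down at 4 h, 6 up and 31 down at 24 h, and 8 up and 25 down at 48 h vs. liver, with medians of -0.46, -0.56 and -0.29. Beside these stand 16.4%, 23.7% and 25.4% of all genes up and 29.8%, 23.9% and 22.6% down. After centring 9 were up and 10 down at 4 h, 13 up and 20 down at 24 h, and 15 up and 20 down at 48 h (27.1%, 39.8% and 40.6% of all genes up and 12.6%, 13.7% and 13.5% down). Pdk4, a kinase that spares glucose when fat is burned, fell by 2.85 at 48 h, with 358, 362 and 388 against 2660.5, 2107 and 3381 in liver, and Amacr, which prepares branched chains for peroxisomal oxidation, by 3.53, with 2092, 2240.5 and 1438 against 21555, 22415 and 21443. Slc27a5, the bile acid and very long-chain acyl-CoA synthetase, fell by 3.33, Cyp4a1, a fatty acid omega-hydroxylase induced by PPAR alpha, by 2.97, and Angptl4, also PPAR alpha-responsive, by 1.55 at 48 h. Cat, Hacl1, Ivd, Sirt3, Txnip and Fabp7 also fell (-1.42, -1.93, -1.18, -1.53, -1.88 and -3.17). Cd36, a fatty acid transporter, was higher at 48 h (2.38, adjusted p = 0.028). Its signal was above the array's median on 7 of 9 arrays of liver and 8 of 8 at 48 h. Some liver signals were thus low, and the size of the difference is uncertain.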

How the data were processed

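Liver and RPH of 3 rats were measured on 43 Affymetrix RG230-2 arrays, and 1 array at 4 h and 1 at 48 h were excluded by the authors. The deposited values are linear MAS5 signal intensity, which the authors scaled to a trimmed mean of 500 on each array (2% trimmed at each end). Whether the deposited values came from Command Console or the affy package is not stated in the sources read. Scaling to one mean ties each gene's signal to all others on its array. Of 31099 probe sets, 20832 name 1 gene and 436 several.

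Signals were log2-transformed with no offset, and technical arrays were averaged to 15 samples. Probe sets above the array median in at least 10% of arrays were kept, and the one with the highest mean stood for its gene. All 15 samples entered 1 limma 3.58.1 fit (R 4.3.3; 3.28 prior degrees of freedom) without a rat term, with Benjamini-Hochberg adjustment over 10644 genes in each of 7 comparisons; a gene was called at an adjusted p under 0.05. The fit was tested on simulated data. Precision is limited by the number of rats, 3 per group, since the arrays of a sample are technical repeats.

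Per the labels, samples of one number come from the same rat, though the livers of rats 1 and 2 each resembled the other rat's hepatocytes more. Their residuals had a median r of 0.34 (30 pairs), against -0.18 for different rats (60 pairs), and 0.42 without liver (18 pairs).

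Every gene is named, with each rat's value for Cpt1a, Ppara, Bdh1 and the 3 largest changes per role at 48 h vs. liver; values per rat given for Crat, Acadl, Hadha, Hadhb and Pex11a were added after values were seen. Related genes were named where called at 48 h, at most 3 per list. Members and lists were chosen with earlier results of these data known. Promoter windows are from RefSeq (GRCr8). Other scalings, filters, offsets, probe set rules, models and left-out samples were tried.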

Additional observations from a re-analysis of the deposited data

Results flagged for a closer look

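These genes stood out because the difference vs. liver had opposite signs at successive times and the change between those times itself passed limma's threshold. Ppara differed by 2.45 from liver at 4 h and -0.29 at 24 h, a change of -2.74, but its signal was above the array's median on 2 of 9 arrays at 24 h and 2 of 9 of liver, so neither the sign at 24 h nor the size of the change is read. Pex11a was 0.58 at 4 h and -0.10 at 24 h, a change of -0.67 (adjusted p = 0.0132). A second probe set of Pex11a, dim in liver, was above liver at both times (1.56 and 1.03). Acadsb was 0.59 at 4 h and -0.67 at 24 h, a change of -1.27 (adjusted p = 0.0226). Eci1 was -0.52 at 4 h and 0.27 at 24 h, a change of 0.79 (adjusted p = 0.0328). Acot2 was -0.40 at 4 h and 0.66 at 24 h, a change of 1.06 (adjusted p = 0.00323). Vnn1 was -0.66 at 24 h and 0.81 at 48 h, a change of 1.47 (adjusted p = 0.0172). All values are log2 differences over 3 rats per group. Of the 12 differences vs. liver, Ppara and Pex11a at 4 h, Acot2 at 24 h and Vnn1 at 48 h were called. The change was lost when any of 4 samples was left out for Acadsb, Eci1 and Vnn1 and any of 2 for Pex11a. After centring each array on its median, Ppara (0.13) and Pex11a (0.32) were above liver at 24 h and Acot2 (0.06) at 4 h, so their signs no longer opposed, while the changes between times kept their direction and that of Eci1 (0.75) was no longer called.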

How the results depend on the processing

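Of the 20 genes chosen by rule for values per rat, over 7 comparisons (140 results), centring arrays on the median ended 18 calls and added 2, and the rat as a block ended 0 and added 9. Among results called in either fit the sign turned once under centring, quantile normalization, the mean of the probe sets or the block, for Eci1 at 48 h vs. liver, which was -0.082 (adjusted p = 0.817) as the mean of its probe sets, a mean that takes in its second, dim probe set. Among results called in neither, centring turned 25 signs, quantile normalization 6 and the mean of the probe sets 8. Counts over the 36 genes moved as follows, and the cause was not tested. All-gene shares are given only for the main fit, centring and the rat block. In every other fit the all-gene counts may have moved as well, so a moved count there is not read as a result about these genes. Centring gave 1 down at 4 h vs. liver, 2 up at 24 h, 6 up and 11 down at 48 h, 7 down at 4 h vs. 0 h and 1 up at 48 h vs. 24 h. The centred all-gene shares, in the same order, were 12.6%, 39.8%, 40.6%, 13.5%, 14.9% and 1.77%. Quantile normalization gave 0 up at 24 h vs. liver, 1 up at 4 h vs. 0 h and 5 up at 48 h vs. 24 h. No filter gave 0 up at 24 h vs. liver, 1 up and 9 down at 4 h vs. 0 h, and 1 up at 48 h vs. 24 h, and a filter at the median in 50% of arrays 1 up at 4 h vs. liver and vs. 0 h. The mean of the probe sets gave 1 up at 48 h vs. 24 h. Fitting only the 2 groups compared gave 1 up and 7 down at 4 h vs. 0 h and 1 up at 48 h vs. 24 h. The 43 arrays with a random block gave 16 down at 4 h vs. liver, 1 up and 22 down at 4 h vs. 0 h, and 10 up at 48 h vs. 24 h. With the rat as a block, which pairs the samples of one rat, 13 were down at 4 h vs. liver and 6 up at 48 h vs. 24 h, and no other count left its range of 1.5 times.

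Leaving out single samples or rats gave, vs. liver, 1 to 2 up and 3 to 15 down at 4 h, 0 to 1 up and 22 to 25 down at 24 h, and 1 to 3 up and 17 to 24 down at 48 h. At 4 h vs. 0 h it gave 0 to 2 up and 4 to 19 down, at 24 h vs. 4 h 0 to 3 up and 15 to 21 down, and at 48 h vs. 24 h 0 to 3 up. Of the genes down vs. liver, 20 of 24 at 24 h and 15 of 23 at 48 h were called in each of these fits. With 3 rats per group and dim probe sets such as Ppara, small changes were not detectable.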
